A study of Mus musculus with 4 samples.

Results

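*Crabp1* and 8 other genes of the retinoic acid pathway, namely *Crabp2*, *Aldh1a1*, *Aldh1a2*, *Aldh1a3*, *Dhrs3*, *Cyp26b1*, *Rarb* and *Rarg*, were followed in 4 RNA-seq libraries of *Tmpo* WT and *Tmpo* KO imMDFs. They are 9 of the 23732 genes with a symbol in the counts, and were chosen by their *Tmpo* KO against WT values in these same libraries, so those values are described without a test. The counts hold 16 transcript IDs for them, of which 13 have at least 1 read, and the ID with the highest summed count stands for each gene. Tests ran over the 13855 transcripts with a CPM (read count scaled by library size) of at least 1 in each library of WT, of KO or of both. Of the 9 genes 7 passed this filter, *Crabp1* and *Dhrs3* through the KO libraries alone and *Aldh1a2* through the WT libraries alone, while *Rarb* and *Cyp26b1* reached it in neither genotype.

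The imMDFs are immortalized dermal fibroblasts of the mouse, which have LAP2alpha, a lamin A/C-binding protein encoded by *Tmpo* (labelled Lap2alpha +/+, here WT), or lack it (Lap2alpha -/-, here KO, made from mice with a deletion of *Tmpo* exon 4). Each genotype gave 1 library at passage 34 (replicate 1) and 1 at passage 42 (replicate 2), in the same untreated medium with serum. The sources name 1 line per genotype and no age or strain of the animals, so the deletion and anything else in which the lines differ cannot be told apart, and p-values measure only the spread between these libraries. Total reads in transcripts were between 12168433 and 19603812 per library, from 31.4% to 36.7% of all reads. The *Tmpo* transcript of LAP2alpha (NM_011605) had 903 and 1324 reads in WT and 6 and 6 in KO. Fibroblast markers summed to between 12388 and 16045 CPM over 12 genes, led by *Vim*. However, *Lum* lay at or below 2.38 CPM. The leading IDs of *Dcn* and *Pdgfra* lay at or below 12.3 and 4.08 CPM, and that of *Pdgfrb* had no read. *Dcn*, *Pdgfra* and *Pdgfrb* have 2 IDs each, and reads in exons that the IDs share were not counted. Of 11 tested fibroblast markers 1 passed the test between the genotypes, where 2.75% of all tested transcripts did. That marker was *Thy1*, with 308 and 275 CPM in WT and 1328 and 757 CPM in KO. An unadjusted edgeR p under 0.05 was found for 2 of the 11, *Thy1* and *Dcn*, and for 12.8% of all tested transcripts. The counted ID of *Dcn* was lower in KO, with a log2 fold change of -1.18 (SE 0.398). Markers of the dermal papilla, the mesenchyme of the hair follicle, summed to between 29.0 and 58.4 CPM over 9 genes, and 0 of the 5 tested passed by edgeR or DESeq2 or had an unadjusted p under 0.05. Markers of 5 other kinds of cell (28 genes) summed to between 76.6 and 101 CPM in every library, with 4 of them at 0 throughout. They were led by *Tyr*, a melanocyte marker, at between 25.8 and 41.4 CPM. Of the 17 that could be tested 0 passed by edgeR or DESeq2, although 2 had an unadjusted p under 0.05.

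Retinoic acid is made from retinol in successive oxidations. Retinol dehydrogenases form retinaldehyde, which *Dhrs3* can reduce back to retinol, and the Aldh1a enzymes oxidize retinaldehyde irreversibly to retinoic acid. The acid is carried in the cytoplasm by *Crabp1* and *Crabp2*, broken down by Cyp26 enzymes, and bound in the nucleus by retinoic acid receptors such as *Rarb* and *Rarg*, which pair with retinoid X receptors on directly repeated hexamers of DNA. In skin this pathway is known for its control of epidermal differentiation and hair growth.

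*Crabp1*, the carrier thought to pass retinoic acid to breakdown, had few counted reads in both WT libraries and many in both KO libraries. Its transcript NM_013496 lies at chr9:54612555-54620917 on the plus strand of mm9, and no other annotated gene overlaps it. The stretch before its start is shown here because *Crabp1* is the gene of the set whose level differed most between the genotypes:
*Crabp1*, 250 bases before the start, chr9:54612305-54612554: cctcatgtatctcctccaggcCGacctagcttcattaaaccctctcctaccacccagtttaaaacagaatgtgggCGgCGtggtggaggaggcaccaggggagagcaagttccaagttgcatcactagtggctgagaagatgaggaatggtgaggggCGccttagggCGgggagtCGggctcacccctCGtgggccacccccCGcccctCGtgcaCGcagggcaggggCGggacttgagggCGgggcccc
Capitals mark the 12 CG pairs, which are where mammalian DNA can be methylated. The sequence comes from the RefSeq promoter table of GRCm38.p6 and was placed on mm9 by its 1 exact match. With the first 50 bases of the transcript, this window of 300 bases had a GC content of 65% and 17 CG pairs, against medians of 52.7% and 7 over all 32851 promoter windows of the table.

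In WT, *Crabp1* had 12 reads at passage 34 and 31 at passage 42, or 0.986 and 1.98 CPM. In KO it had 530 reads at passage 34 and 1497 at passage 42, or 33.6 and 76.4 CPM. The counted WT values lay among those of the markers of other cell types, whose medians were between 1.07 and 2.15 CPM in the 4 libraries. Reads in exons that both *Crabp1* IDs share were not counted, so this does not place the level of the gene as a whole. The lowest KO value was far above the highest WT value. The mean level was 1.48 ± 0.701 CPM for WT (SD, n = 2) and 55.0 ± 30.3 CPM for KO (SD, n = 2), and the log2 fold change was 5.17 (SE 0.483). That was the increase of rank 3 among the 13855 tested transcripts. The other *Crabp1* ID (NM_001284507) had no counted read in any library, which does not show that it was absent.

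The gap between the genotypes was of like size at both passages. *Crabp1* was 34.0-fold higher in KO than in WT at passage 34, with a 95% exact counting interval from 19.3 to 66.3. At passage 42 it was 38.6-fold higher, with an interval from 27.1 to 57.0. These intervals cover counting error only, since each compares 1 library with 1 other, and in bulk samples fewer expressing cells and less RNA per cell cannot be told apart. Leaving out each library in turn gave log2 fold changes from 4.40, without the KO library of passage 42, to 5.74, without the WT library of passage 42.

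**Figure D1:**
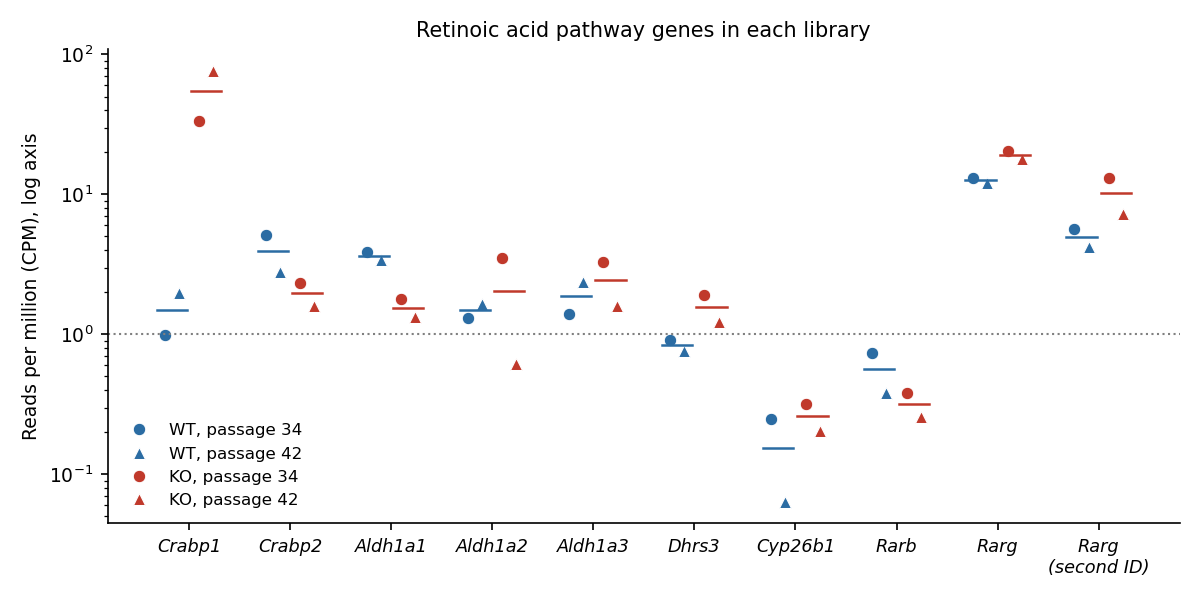
CPM of each gene in each library on a log axis, with *Tmpo* WT in blue, *Tmpo* KO in red, passage 34 as circles, passage 42 as triangles and the genotype mean as a line; the dotted line is the level of 1 CPM used in the filter. *Crabp1* lies between 0.986 and 1.98 CPM in WT and between 33.6 and 76.4 CPM in KO, while the 2 genotypes overlap in *Aldh1a2*, *Aldh1a3* and *Cyp26b1*.

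Passage was not used to choose the genes, although the *Crabp1* counts were known beforehand, so the passages could be compared with a test. *Crabp1* was higher at passage 42 than at passage 34, with a log2 fold change of 1.17 (SE 0.308) and an adjusted p of 0.0126 (edgeR's quasi-likelihood test with genotype as a block, Benjamini-Hochberg over all 13855 transcripts). The passage 42 library was 2.01-fold higher in WT (interval from 1.00 to 4.29) and 2.27-fold higher in KO (from 2.06 to 2.52), so both lines showed the direction. Of the 7 tested genes, 1 passed this test, where 2.31% of all tested transcripts did. The call was lost with DESeq2 (adjusted p = 0.0936), and *Crabp1* was not tested where 1 CPM was required in all 4 libraries. It was also lost with no genotype block (edgeR adjusted p = 0.974, SE 1.71). There the gap between the genotypes counts as spread within a passage, so that loss says nothing about the passage difference. The other 6 tested genes had log2 fold changes below 0 between the passages, from -0.14 (*Rarg*) to -1.09 (*Aldh1a2*, adjusted p = 0.320 from edgeR), and none of them passed. Passage and replicate number cannot be told apart.

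The other carrier, *Crabp2*, hands retinoic acid to its receptors in the nucleus. It lies at chr3:87752588-87757298 and had 62 and 44 reads in WT at passages 34 and 42 (5.10 and 2.81 CPM) and 37 and 31 in KO (2.34 and 1.58 CPM). Both KO libraries were below both WT libraries, opposite to *Crabp1*, with a log2 fold change of -1.04 (SE 0.440). KO over WT was 0.460 at passage 34 (interval from 0.298 to 0.702) and 0.563 at passage 42 (from 0.344 to 0.913). The log2 fold change was smaller, at -0.53, when the WT library of passage 34 was left out. In the passage comparison *Crabp2* had a log2 fold change of -0.71 (adjusted p = 0.546).

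The 3 retinaldehyde dehydrogenases, which make retinoic acid, did not share a direction. *Aldh1a1*, at chr19:20676451-20717952, had 47 and 53 reads in WT (3.86 and 3.38 CPM) and 28 and 26 in KO (1.77 and 1.33 CPM). Its KO libraries were below its WT libraries at both passages, with a log2 fold change of -1.25 (SE 0.402) and KO over WT ratios of 0.459 at passage 34 (interval from 0.277 to 0.749) and 0.392 at passage 42 (from 0.235 to 0.639). A close copy, *Aldh1a7*, lies on the same chromosome, had 16 to 33 reads per library with a log2 fold change of 0.10 (adjusted p = 0.969), and could share reads with *Aldh1a1*, so the split of reads between the pair is uncertain.

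*Aldh1a2* and *Aldh1a3* were higher in KO at one passage and lower at the other. *Aldh1a2*, known as the main source of retinoic acid in the early embryo and located at chr9:71063596-71144050, had 16 WT reads and 55 KO reads at passage 34 (1.31 and 3.48 CPM). At passage 42 it had 26 WT reads and 12 KO reads (1.66 and 0.612 CPM). KO over WT was therefore 2.65 at passage 34 (interval from 1.50 to 4.95) and 0.369 at passage 42 (from 0.170 to 0.758), and the KO libraries enclosed the WT libraries.

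*Aldh1a3*, at chr7:73535778-73572403 on the minus strand, had 17 WT reads and 52 KO reads at passage 34 (1.40 and 3.29 CPM), and 37 WT reads and 31 KO reads at passage 42 (2.36 and 1.58 CPM). The ratios were 2.36 (interval from 1.34 to 4.35) and 0.670 (from 0.402 to 1.11), and the genotypes again overlapped. Over both passages the log2 fold changes were 0.38 (SE 0.643) for *Aldh1a2* and 0.32 (SE 0.472) for *Aldh1a3*. Each turned negative when the KO library of passage 34 was left out, to -1.27 for *Aldh1a2* and -0.26 for *Aldh1a3*. With 1 library per genotype and passage, the difference between the passages was not tested.

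**Figure D2:**
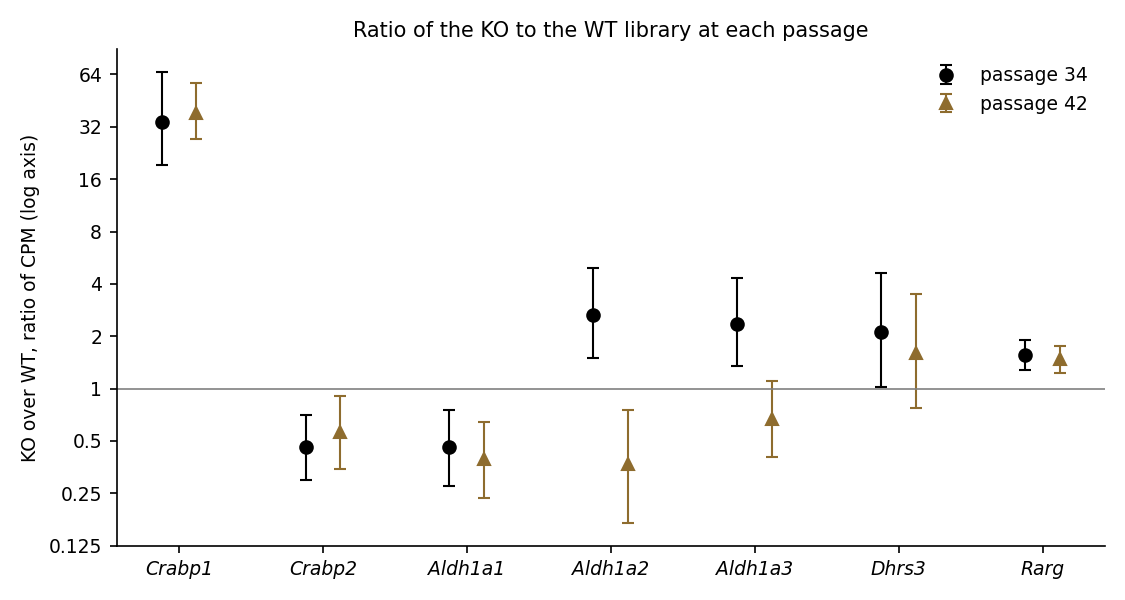
Ratio of the KO to the WT library at passage 34 (black circles) and passage 42 (brown triangles) for the 7 tested genes on a log axis, with bars for 95% exact counting intervals and a line at 1. *Crabp1* lies at 34.0 and 38.6, *Crabp2* and *Aldh1a1* lie below 1 at both passages, and *Aldh1a2* and *Aldh1a3* change side between the passages.

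Levels could be compared between genes only for the 4 with a single ID, since reads in exons that the IDs of a gene share were not counted. In CPM per kilobase of merged exons, WT held 2.99 ± 1.22 (SD, n = 2) of *Crabp2*, 1.76 ± 0.166 of *Aldh1a1*, 0.657 ± 0.107 of *Aldh1a2* and 0.407 ± 0.148 of *Aldh1a3*. The spread of *Crabp2* in WT was as large as its gap to *Aldh1a1*. In KO the same levels were 1.48 ± 0.408, 0.755 ± 0.154, 0.905 ± 0.897 and 0.528 ± 0.262 (SD, n = 2). *Aldh1a1*, the higher of the 3 enzymes per kilobase in both WT libraries, overlapped both of the others in KO.

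*Dhrs3*, which reduces retinaldehyde and is known as a gene that retinoic acid induces, lies at chr4:144482730-144518112. It had 11 and 12 reads in WT (0.904 and 0.765 CPM) and 30 and 24 in KO (1.90 and 1.22 CPM). Both KO libraries were above both WT libraries, with a log2 fold change of 0.87 (SE 0.453), but at passage 42 the ratio of 1.60 had an interval from 0.769 to 3.51. At passage 34 the ratio was 2.10 (from 1.02 to 4.65). The other *Dhrs3* ID (NM_001172424) had 4 and 0 reads in WT and 6 and 3 in KO.

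*Cyp26b1*, an enzyme of retinoic acid breakdown at chr6:84521938-84543740, was close to the limit of counting. Its leading ID (NM_001177713) had 3 and 1 reads in WT and 5 and 4 in KO, and its other ID (NM_175475) had 3 and 2 in WT and 0 in both KO libraries. A floor of 3 reads corresponds to between 0.153 and 0.247 CPM in these libraries, so no fold is given. Reads in exons that its IDs share were not counted, and a difference was not detectable in the counted reads.

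Of the receptors, *Rarg* had enough reads to compare the genotypes and *Rarb* did not. *Rarg*, the receptor known as the main one of the epidermis, lies at chr15:102065369-102087948 on the minus strand and had 160 and 190 reads in WT (13.1 and 12.1 CPM) and 323 and 350 in KO (20.5 and 17.9 CPM). The log2 fold change was 0.57 (SE 0.273), with ratios of 1.56 at passage 34 (interval from 1.28 to 1.89) and 1.47 at passage 42 (from 1.23 to 1.77). The ratio was nearly the same at both passages.

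The other *Rarg* ID, NM_001042727, had 69 and 66 reads in WT (5.67 and 4.21 CPM) and 208 and 141 in KO (13.2 and 7.19 CPM). Both IDs were higher in both KO libraries, and NM_001042727 had a log2 fold change of 1.01 (SE 0.378), and 0.55 without the KO library of passage 34. Only reads outside the shared exons enter these counts, so they do not give the level of the receptor as a whole.

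*Rarb*, at chr14:17263356-17651381 on the minus strand, had 9 and 6 reads in WT (0.740 and 0.383 CPM) and 6 and 5 in KO (0.380 and 0.255 CPM). The ratios of 0.514 (interval from 0.151 to 1.62) and 0.666 (from 0.161 to 2.62) both had intervals that included 1. Its 3 other IDs held 5 reads in all, and reads in exons that the IDs share were not counted. A difference in either direction was therefore not detectable in the counted reads.

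*Rarb* is known for a response element near its start to which retinoic acid receptors bind. The promoter windows were searched on both strands for the hexamer AGGTCA or its variants, which are GGGTCA and also AGTTCA and finally GGTTCA, directly repeated with 1, 2 or 5 bases between them, and the matches with 5 bases between are shown because they are the form of that element:
*Rarb*, chr14:17408017-17408053, minus strand: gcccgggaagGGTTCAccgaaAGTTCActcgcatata
*Cyp26a1*, chr19:37772256-37772292, plus strand: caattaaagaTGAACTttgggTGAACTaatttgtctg
Capitals mark the hexamers, which in *Cyp26a1* read on the opposite strand. Positions are of mm9, from 1 exact match of each RefSeq sequence, and the first base of the repeat lay at -53 from a transcript start of the RefSeq table in *Rarb* and at -32 in *Cyp26a1*. That *Rarb* start is an internal one, inside the span given above. Windows were at hand for 7 of the 9 genes (11 windows) and for 53 of the pathway genes described next, and the repeat with 5 bases between was in 1 gene of each group, against 32 of all 32851 windows (0.0974%). No window of the 7 genes held the repeat with 1 or 2 bases between, which 0.222% and 0.268% of all windows did. The *Crabp1* window held none of these repeats. A match is a description of the sequence and not a measured site.

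Read over the set, 1 of the 7 tested genes (*Crabp1*) passed the *Tmpo* KO against WT test that 2.75% of all tested transcripts passed, 1.51% as higher in KO. The libraries of the genotypes did not overlap in 5 of the 7, higher in KO in 3 (*Crabp1*, *Rarg* and *Dhrs3*) and lower in 2 (*Crabp2* and *Aldh1a1*), where 41.7% of all tested transcripts did not overlap. The median log2 fold change of the 7 was 0.38, against 0.02 over all tested transcripts. Since this contrast chose the genes, nothing is read from these shares.

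Other genes of the pathway and of its protein families were taken from 6 lists of 77 genes. Of these 76 were in the counts, 47 were tested, 2 rose in KO and 0 fell, by edgeR's quasi-likelihood test with adjustment over all 13855 transcripts, of which 1.51% rose and 2.75% passed in either direction. An unadjusted p under 0.05 was found for 9 of the 47 and for 12.8% of all tested transcripts. The median log2 fold change of the 47 was 0.12, against 0.02 over all. Some of the genes not tested have several IDs, and reads in exons that the IDs of a gene share were not counted. For those, failing the filter does not give the level of the gene as a whole.

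Both genes that rose are Hox genes, transcription factors of position along the body axis, and are on the list of response genes because retinoic acid is known to regulate them in embryos. *Hoxb4* had 107 and 111 reads in WT (8.79 and 7.08 CPM) and 616 and 613 in KO (39.0 and 31.3 CPM), with a log2 fold change of 2.12 (SE 0.280, edgeR adjusted p = 0.00238). *Hoxd4* had 81 and 104 reads in WT (6.66 and 6.63 CPM) and 221 and 457 in KO (14.0 and 23.3 CPM), with a log2 fold change of 1.47 (SE 0.340, edgeR adjusted p = 0.0446). *Hoxd4* overlaps *Hoxd3* on the same strand in the annotation of mm9, and its call was lost without either WT library, without the KO library of passage 42 and where 1 CPM was required in all 4 libraries. The other 9 tested response genes did not pass. On this list of 11 tested genes, *Hoxb4* and *Hoxd4* were the 2 with each KO library above each WT library. In 3 others each KO library lay below each WT library, where 41.7% of all tested transcripts did not overlap in either direction. Half-way through the list, at its median, the log2 fold change was 0.05.

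None of the remaining lists held a gene that passed. Of 15 tested genes for uptake, storage and oxidation of retinol, *Adh7*, an alcohol dehydrogenase that acts on retinol, came nearest, with 285 and 242 reads in WT, 491 and 1257 in KO and a log2 fold change of 1.28 (SE 0.358, edgeR adjusted p = 0.104). KO over WT was 1.33 for *Adh7* at passage 34 and 4.15 at passage 42, and the gene passed in 5 of 12 alternative fits. The 15 tested genes of that list had a median log2 fold change of 0.46. Their libraries did not overlap in 8 as higher in KO and in 1 as lower, where 41.7% of all tested transcripts did not overlap. Some of the 15 passed the filter through the KO libraries alone. *Cyp26c1*, a breakdown enzyme, had a log2 fold change of 0.71 (edgeR adjusted p = 0.513), and *Cyp26a1*, known as the most retinoic acid-inducible of them, had 35 and 29 reads in WT and 32 and 34 in KO, a log2 fold change of -0.35 (edgeR adjusted p = 0.843). The genotypes overlapped in *Cyp26a1*.

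Among 9 tested receptors and cofactors *Ncoa1*, a coactivator of nuclear receptors, had the smallest p, with a log2 fold change of 0.67 (SE 0.238, edgeR adjusted p = 0.227). Of the lipid-binding proteins, the family of the Crabp genes, 4 were tested, and *Rbp2*, which binds retinol, had 5 and 20 reads in WT and 83 and 41 in KO, a log2 fold change of 2.02 (SE 0.586, edgeR adjusted p = 0.121). *Rbp2* was 12.8-fold higher in KO at passage 34 and 1.64-fold higher at passage 42, where the interval from 0.939 to 2.95 included 1. Of 11 other aldehyde dehydrogenases *Aldh1l1*, a folate enzyme, had a log2 fold change of -0.85 (SE 0.343, edgeR adjusted p = 0.306), and the median of that list was -0.40. *Lrat*, which stores retinol as ester, failed the filter at passage 34 in both genotypes, with 11 and 28 reads in WT and 2 and 45 in KO, and is named here after its values were seen.

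**Figure D3:**
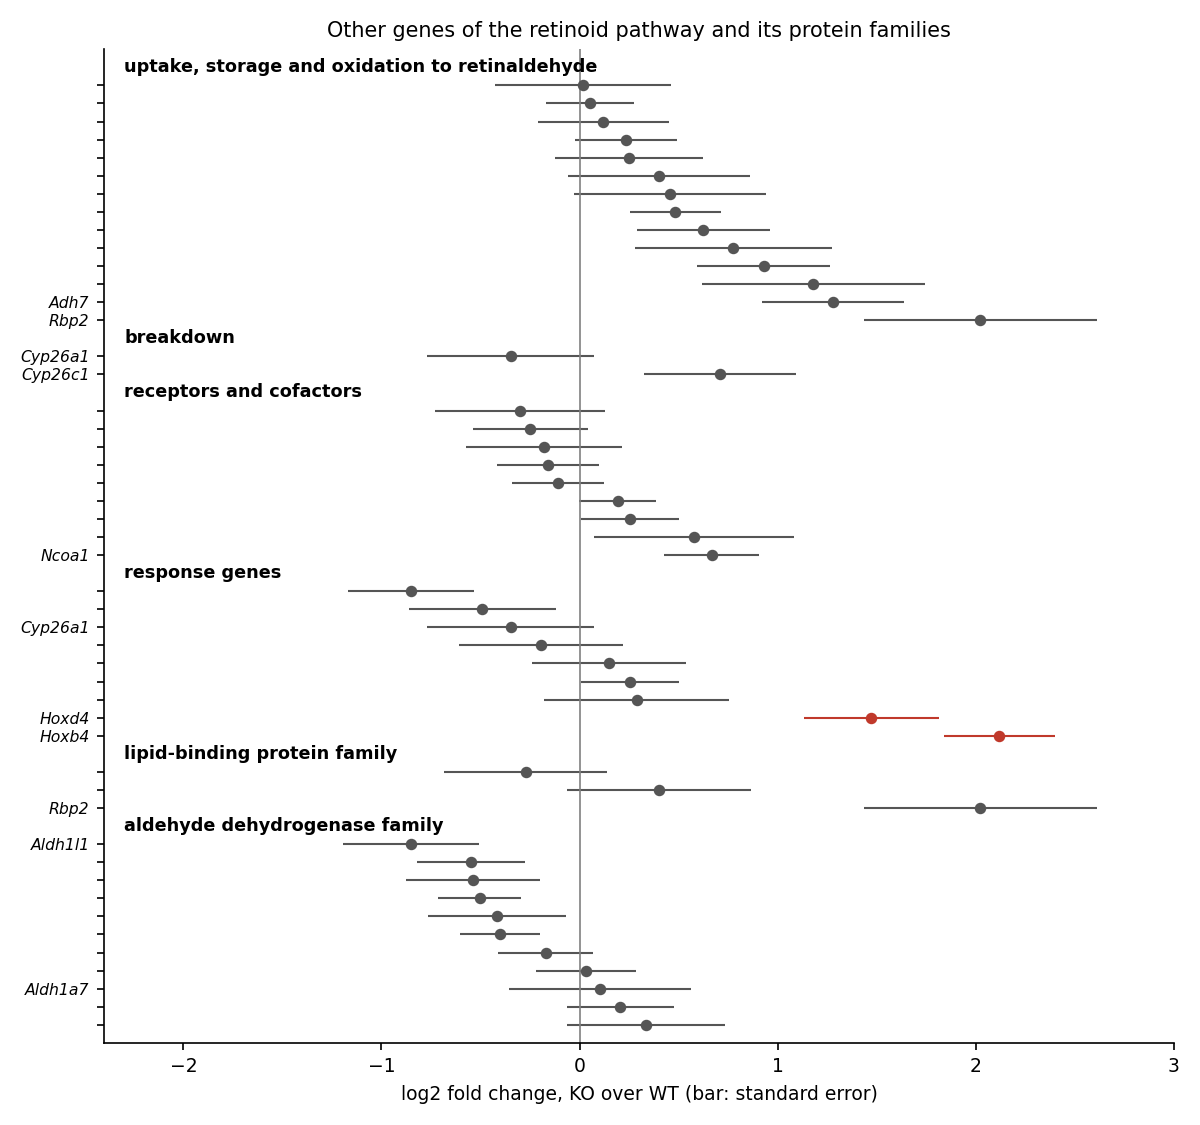
Log2 fold change of *Tmpo* KO over WT for tested genes of each of the 6 lists, with bars for the standard error and genes on 2 lists drawn under each; only genes named in the text carry a label. *Hoxb4* at 2.12 and *Hoxd4* at 1.47, in red, passed edgeR's quasi-likelihood test at an adjusted p under 0.05, and the genes in grey did not.

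The genes next to *Crabp1* on chromosome 9 differed far less between the genotypes than *Crabp1* did. On the side before its start, *Wdr61* lies 16.8 kb away and had 12 to 17 reads per library in its leading ID, too few to be tested. *Dnaja4*, a co-chaperone gene 48.4 kb away, had 62 and 44 reads in WT and 259 and 190 in KO, a log2 fold change of 1.70 (SE 0.402, edgeR adjusted p = 0.0510). It overlaps *Wdr61* on the opposite strand and passed in 8 of 12 alternative fits.

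On the other side, the iron regulator *Ireb2* lies 90.6 kb after the end of *Crabp1*, with a log2 fold change of -0.23 (edgeR adjusted p = 0.828), and *Hykk*, the gene of hydroxylysine kinase, lies 144 kb after it, with -0.49 (edgeR adjusted p = 0.564). Of 20 annotated genes within 500 kb that were in the counts 17 were tested, with log2 fold changes from -0.49 to 1.74 and a median of 0.30. The 1 that passed was *Dmxl2*, 263 kb before *Crabp1*, which had 59 and 62 reads in WT and 285 and 237 in KO, a log2 fold change of 1.74 (SE 0.340, edgeR adjusted p = 0.0192); it is named after its values were seen, and its call was lost without either WT library. All 7 tested genes before *Crabp1* had a log2 fold change above 0, with a median of 0.91, and 6 of 10 did after it, with a median of 0.14. Over all tested transcripts 51.6% were above 0, the median was 0.02 and 2.75% passed. *Cib2* and *Sh2d7* before *Crabp1*, and *Chrna5* and *Nrg4* after it, passed the filter through the KO libraries alone. Passing that way favours a value above 0, and *Cib2* gave the median of 0.91, so nothing is read from these signs.

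**Figure D4:**
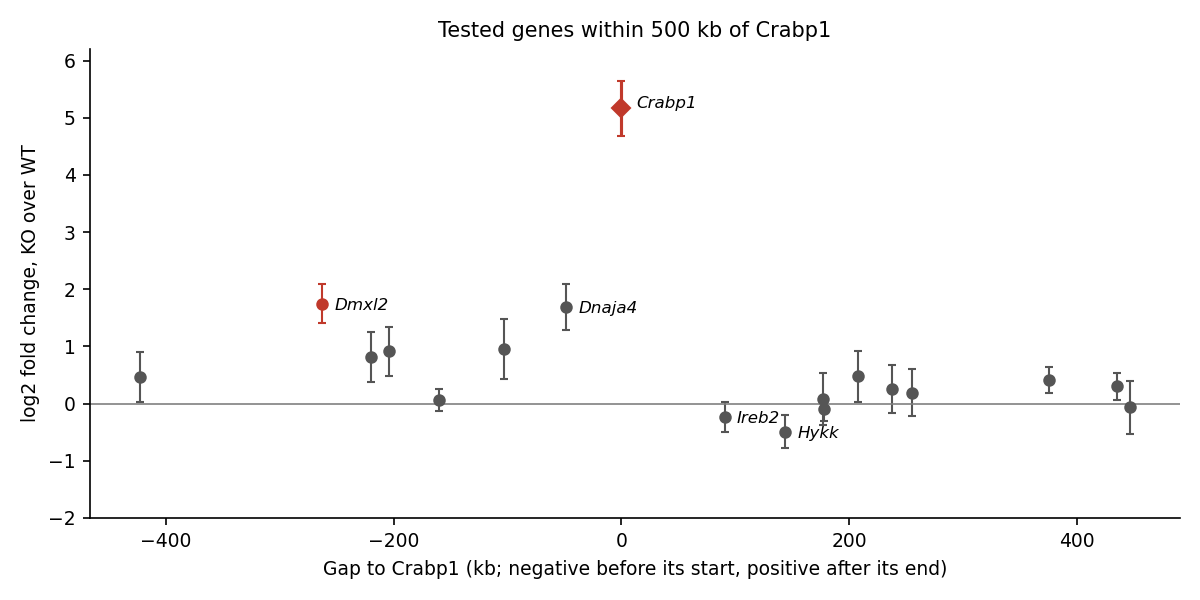
Log2 fold change of *Tmpo* KO over WT, with its standard error, of *Crabp1* (diamond) and the 17 tested genes within 500 kb, by the gap between genes in kilobases. *Crabp1* at 5.17 stands above all its neighbours, of which *Dmxl2* (red) at 1.74 and *Dnaja4* at 1.70 are the highest.

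The transcripts most like *Crabp1* were sought by the Euclidean distance between log2 CPM values, each centred over the 4 libraries. In order they were *Ifi27l2b*, an interferon-induced gene (distance 0.690), *Rpl39l*, a copy of a ribosomal protein gene (0.699), *Hoxb7* (1.30), *Tenm4*, a transmembrane teneurin (1.33), and *Bnc1*, a zinc-finger transcription factor (1.60). *Ifi27l2b* had 0 and 4 reads in WT and 59 and 141 in KO. *Bnc1* had 23 and 30 reads in WT and 372 and 582 in KO. *Ifi27l2b* overlaps *Ifi27l2a* and *Hoxb7* overlaps *Hoxb8* on the same strand, so their counts are less certain, and likeness over 4 libraries is a description only.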

How the data were processed

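The deposited files hold raw counts per RefSeq transcript ID, which the authors made from rRNA-depleted RNA with cutadapt, TopHat2 2.0.9 on mm9 and HTSeq (strand setting not given in the sources used here). Every ID was a feature of its own, so reads in exons shared by the IDs of a gene were not counted, and rows without a transcript stayed out of all totals: 49.9% to 56.5% of reads lay in no feature and 12.1% to 13.4% were ambiguous. Of 32757 IDs, 32308 were matched to a symbol. Library sizes were the reads in transcripts. Tests used edgeR 4.0.16 in R 4.3.3 (TMM, quasi-likelihood, Benjamini-Hochberg adjusted p under 0.05), without a block for genotype and with genotype as a block for passage; SEs were the fold change over the root of its F statistic. With 2 libraries against 2, a rank or permutation test of a single transcript could not reach that threshold. Ratios within a passage are of CPM, with exact binomial counting intervals (scipy 1.17.1).

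The members, gene lists and tests were chosen with earlier results of these data known. Named were the 9 genes, the pathway genes that passed or else had the smallest p of their list, the nearest 2 genes on each side of *Crabp1* and the 5 transcripts most like it. Alternatives were RLE factors, library totals, DESeq2 1.42.0, edgeR's exact test, other filters, counts summed per gene, a prior count of 2 in log2 differences, a replicate block, no genotype block and each library left out. *Cyp26a1*, *Aldh1a7*, *Lrat*, *Dmxl2*, *Cib2*, *Sh2d7*, *Chrna5*, *Nrg4*, *Tyr* and *Thy1* were named outside this rule, with their values seen. Some results for genes on the lists are not reported here. The procedure was tested on simulated data.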

Additional observations from a re-analysis of the deposited data

Results flagged for a closer look

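*Aldh1a2* and *Aldh1a3* differed between the genotypes in opposite directions at passages 34 and 42. The log2 ratio of KO over WT of *Aldh1a2* was 1.41 at passage 34 and -1.44 at passage 42, a change of -2.84. That of *Aldh1a3* was 1.24 at passage 34 and -0.58 at passage 42, a change of -1.82. Each ratio compares 1 KO library with 1 WT library, so these differences between the passages were not tested. For *Aldh1a3* the counting interval at passage 42, from 0.402 to 1.11 on the ratio scale, included 1.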

How the results depend on the processing

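Over the settings run, the log2 fold change between the genotypes lay from 4.40 to 5.74 for *Crabp1*, -1.44 to -0.53 for *Crabp2*, -1.43 to -1.08 for *Aldh1a1*, -1.27 to 1.15 for *Aldh1a2*, -0.26 to 0.73 for *Aldh1a3*, 0.49 to 0.70 for *Rarg* and 0.57 to 1.13 for *Dhrs3*. The choice of genes used this contrast, so these ranges are no sign of stability. Transcripts called between the genotypes numbered 381, and 740 with no filter on low counts, 613 with edgeR's exact test, 1092 with a replicate block and from 156 to 1199 with each library left out. Without WT replicate 1 there were 156, without KO replicate 1 there were 816 and without KO replicate 2 there were 1199. Of the pathway genes 2 were called, and 4 with no filter, 1 where all 4 libraries had to reach 1 CPM, 4 with the exact test, 6 with a replicate block (5 higher, 1 lower) and from 1 to 4 with each library left out. The replicate numbers are passages, and no source says that same-numbered libraries share a batch. The difference between replicates correlated between the genotypes with r = 0.175 across 13855 transcripts, so the replicate block is an alternative only. Among the genes named, that block brought *Adh7*, *Rbp2* and *Dnaja4* past the threshold. It did so for *Aldh1a1* too (edgeR adjusted p = 0.0498, against 0.169 without the block). However, *Aldh1a1* was chosen by this contrast, so nothing is read from its call. Leaving out a library leaves 1 in its genotype, which is assumed to vary like the other. Transcripts called between the passages numbered 320, and 48 with DESeq2, 145 under the filter on all 4 libraries and 0 with no genotype block (669 at an unadjusted p under 0.05); of the 7 tested members 1 was called, and 0 under each of those 3 settings, in which DESeq2 gave 1 at an unadjusted p under 0.05 and the other two gave 0. The causes were not tested, except that the filter on all 4 libraries leaves *Crabp1* out by its level in 1 WT library. With no genotype block the gap between the genotypes counts as spread within a passage. The number of counted reads limits the members other than *Crabp1* and *Rarg*, which had at most 62 reads in a library. For *Dhrs3*, *Cyp26b1* and *Rarb*, reads in exons shared by their IDs were not counted.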
